A study of Rattus norvegicus with 102 samples.

Results

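Genes of adult neurogenesis and proliferation were followed through the 3 hippocampal subfields of young and aged rats. The rule named 9 genes and took the rows of the normalized count table whose gene symbol was one of them. Of these, 7 were found among the 26689 genes of the table, namely Dcx, Sox11, Neurod1, Eomes, Igfbpl1, Mki67 and Cdk1. No row carried the symbol Sox4 or Top2a, and no value is given for either.

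In the adult dentate gyrus (DG), radial glia-like stem cells at the inner edge of the granule cell layer divide and give rise to intermediate progenitors, which become immature neurons and finally granule neurons. Eomes is a T-box transcription factor of intermediate progenitors. Neurod1 is a basic helix-loop-helix factor needed for the survival and maturation of new granule neurons, Sox11 and Sox4 are HMG-box factors of immature neurons, and Dcx encodes doublecortin, a microtubule-associated protein of migrating and newborn neurons. Igfbpl1 encodes a secreted protein related to the insulin-like growth factor binding proteins. Mki67 encodes Ki-67, which coats mitotic chromosomes and is used as a label of cycling cells, Cdk1 is the kinase that drives entry into mitosis, and Top2a is the DNA topoisomerase of dividing cells. Production of new granule neurons is known to decline with age in rodents, and CA1 and CA3 have no stem cell zone of this kind.

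The positions given here are those of the GRCr8 annotation of RefSeq, a later build than the rn5 genome to which the reads were aligned. Dcx (ENSRNOG00000047712) lies on chromosome X from 112227455 to 112370291, Mki67 (ENSRNOG00000028137) on chromosome 1 from 199926150 to 199952847, and Neurod1 (ENSRNOG00000005609) on chromosome 3 from 84766483 to 84770454. Sox11 (ENSRNOG00000030034) lies on chromosome 6 from 49736773 to 49738794 and Igfbpl1 (ENSRNOG00000011320) on chromosome 5 from 64872056 to 64887461. Eomes (ENSRNOG00000042140) lies on chromosome 8 from 127059215 to 127067070 and Cdk1 (ENSRNOG00000000632) on chromosome 20 from 19265252 to 19280456.

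The libraries were made from poly-A mRNA of CA1, CA3 and DG, dissected by hand from a single hippocampus of each of 34 male Fischer 344 rats and sequenced on the Ion Proton, a semiconductor instrument. The young group held 10 rats of 5 to 6 months. The aged group held 24 rats of 17 to 22 months, divided by a probe trial in the water maze into 12 aged unimpaired (AU) and 12 aged impaired (AI) rats. All rats, young ones included, had been trained in the maze before tissue was taken, and each library is 1 subfield of 1 rat. A value is a normalized count, that is, the reads on a gene divided by the size factor of the library. Rat identifiers begin with R9 in 16 rats, of which 5 were young, 6 AU and 5 AI, and with R1 or R2 in 18, of which 5 were young, 6 AU and 7 AI. The rats were kept at 2 sites, and the labels do not say whether the R9 and R1-R2 series mark them, although each series matches a site in size (5 young with 11 aged rats in R9, 5 young with 13 aged in R1-R2).

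Each library held between 4478984 and 21467303 reads assigned to genes (median 9755402). The summed level of 10 granule cell markers had a median of 7464 in DG of young rats and 7326 in DG of aged rats, against 4592 and 4579 in CA1 and 2158 and 2339 in CA3, so that these markers were highest in DG and were also detected in the other subfields. Markers of ependyma and choroid plexus, which line and fill the neighbouring ventricle, varied most. Their summed level exceeded 5 times the median of the subfield in 10 libraries and reached 170179 in CA1 of an AI rat, where the CA1 median was 433. The DG library of the young rat R9881 had the highest ependymal sum of its subfield (5056) and a granule cell sum of 2891, lower than in 32 of the other 33 DG libraries. Of the 10 libraries, the 6 from CA1 were all of aged rats (4 AU and 2 AI), the 2 from DG were both of young rats, and the 2 from CA3 were of 1 young and 1 AI rat. These are few libraries past a set cut, and a link of the ependymal sum with age was not tested. The part of the ependymal sum in the age differences was not tested beyond the values given without these libraries.

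Dcx in DG had the lowest p of the members in the comparison of age. In young rats its lowest, median and highest values were 185, 350.0 and 617 normalized counts, in AU rats 129, 255 and 412, and in AI rats 137, 317 and 438. The ranges overlapped, but 18 of the 24 aged rats lay under the young median and 2 young rats lay above every aged rat. The mean was 384 ± 121 (SD, n = 10) in young and 286 ± 87.8 (SD, n = 24) in aged rats. The log2 difference of aged against young rats was -0.43 ± 0.17 (SE, 95% CI -0.79 to -0.08), with an unadjusted p of 0.0174 and an adjusted p of 0.596 in limma, a linear model fitted to every gene with Benjamini-Hochberg adjustment. Under the threshold of an adjusted p of 0.05, hereafter called, this difference did not pass. As the samples are bulk tissue, fewer cells of a type and less RNA per cell cannot be told apart.

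The sign of the Dcx difference in DG was negative in each series. In R9 rats it was -0.60 (p = 0.00247, adjusted p = 0.341), with young rats at 330 to 617 and aged rats at 205 to 438. In R1-R2 rats it was -0.25 (p = 0.336, adjusted p = 0.9999), with young rats at 185 to 369 and aged rats at 129 to 412. A test of the difference between the series gave -0.35 (p = 0.288, adjusted p = 0.879 in limma). AU rats alone differed from young rats by -0.51 (p = 0.00954) and AI rats alone by -0.36 (p = 0.0885), with adjusted p of 0.705 and 0.706 in limma. The highest value, 617, was from the young rat R9881 whose ependymal sum was high. Without that rat the difference was -0.35 with p = 0.0544 in limma, and without the 2 DG libraries of high ependymal sum it was -0.36 with p = 0.0625.

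**Figure D1:**
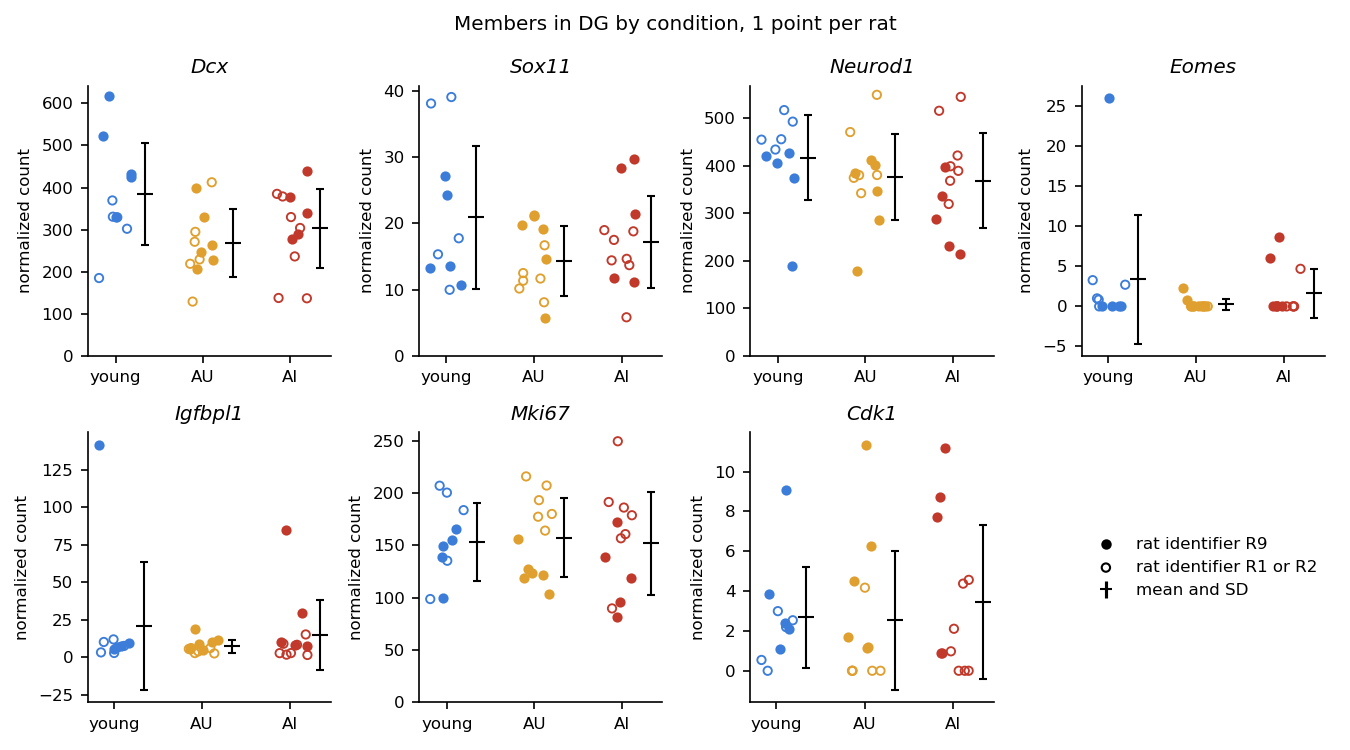
Normalized counts of the 7 members found (vertical axes) in the 34 DG libraries by condition, 1 point per rat, with the mean and SD beside each group. Dcx of young rats reached 617 against at most 438 in aged rats, while Mki67 covered much the same range in the 3 conditions, and 1 young R9 rat stood far above the others in Eomes and Igfbpl1.

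The other genes of the neuronal lineage had smaller or less certain differences. Sox11 in DG ran from 9.98 through a median of 16.5 to 39.0 in young rats, from 5.75 through 13.5 to 21.3 in AU rats and from 5.83 through 16.1 to 29.7 in AI rats. Its 2 highest values were from young rats and the rest of the young group lay within the range of the aged rats. The log2 difference was -0.34 ± 0.23 (SE, p = 0.147, adjusted p = 0.619 in limma), with 0.03 in R9 rats alone and -0.68 in R1-R2 rats alone (p = 0.0421, adjusted p = 0.9999). Neurod1 in DG had lowest, median and highest values of 189, 431 and 517 in young, 178, 380.2 and 549 in AU and 213, 379 and 545 in AI rats. Although 20 of 24 aged rats were under the young median, the ranges overlapped almost entirely, and the log2 difference was -0.17 ± 0.14 (SE, p = 0.245, adjusted p = 0.664 in limma). Without rat R9881, which had the lowest Neurod1 of the young rats, this difference was -0.29 with p = 0.0332 and an adjusted p of 0.566.

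Igfbpl1 and Eomes in DG were low in all but a few rats. Igfbpl1 ran from 2.99 through a median of 7.71 to 141 in young rats, from 2.70 through 5.96 to 18.6 in AU rats and from 1.67 through 8.29 to 84.9 in AI rats. The log2 difference with age was -0.33 ± 0.44 (SE, adjusted p = 0.784 in limma) with rat R9881, which held the value of 141, and 0.09 without it. Eomes had 0 reads in 24 of the 34 DG libraries, namely in 5 of 10 young, 10 of 12 AU and 9 of 12 AI rats. Where 0 reads were counted, an expected level of up to about 3 reads in a library is not excluded, so that absence of the transcript cannot be read from it. The highest Eomes values were 26.0 in young, 2.25 in AU and 8.73 in AI rats, and the 26.0 was again from rat R9881. Eomes did not reach the mean of 5 normalized counts required for the test, and in the fit without that filter its log2 difference was -0.60 (95% CI -1.45 to 0.25, adjusted p = 0.712 in limma), and -0.19 without rat R9881.

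The proliferation genes did not pass the test with age in DG. Mki67 had lowest, median and highest values of 98.7, 152 and 207 in young, 104, 160.2 and 216 in AU and 82.0, 159 and 249 in AI rats. The groups overlapped throughout, with means of 153 ± 37.4 (SD, n = 10) in young and 155 ± 43.0 (SD, n = 24) in aged rats. The log2 difference was -0.004 (95% CI -0.31 to 0.30, adjusted p = 0.993 in limma), and its sign was positive in R1-R2 rats alone, in AU rats alone and in the count models. Cdk1 was near the lower limit of detection, with a median of 2.28 in young, 1.16 in AU and 1.54 in AI rats, a highest value of 11.3 and 0 reads in 9 of 34 DG libraries. From the fit without a filter its log2 difference was -0.19 (95% CI -1.07 to 0.69, adjusted p = 0.888 in limma), and 0.0031 without rat R9881.

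In all, 5 of the 7 members passed the filter in DG and 0 were called by limma, edgeR or DESeq2, where limma called 0.0741% of the 16192 genes tested. At an unadjusted p under 0.05 there was 1 member, Dcx, by each of the 3 tools, and 8.33% of all genes by limma. All 5 log2 differences were below 0, with a median of -0.33 against -0.004 over all genes tested. That median is the value of Igfbpl1, which was 0.09 without the young rat R9881. Mki67 lay near 0 and was positive by edgeR and DESeq2, so the shared sign rests partly on these 2 members. A p that misses the threshold does not show that the groups were alike.

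CA1 and CA3, which lack a granule cell layer, served as the control regions. Dcx in CA1 had lowest, median and highest values of 195, 324 and 416 in young, 108, 222 and 316 in AU and 88.9, 254 and 525 in AI rats. Of the 24 aged rats 23 were under the young median, and the highest value of all was from an AI rat. The log2 difference was -0.41 ± 0.18 (SE, 95% CI -0.77 to -0.05, p = 0.0274, adjusted p = 0.934 in limma), against -0.43 in DG. Without the CA1 libraries of high ependymal sum it was -0.32 with p = 0.0563. In CA3 Dcx had lowest, median and highest values of 277, 440.3 and 693 in young, 194, 354 and 534 in AU and 164, 362 and 880 in AI rats, and the log2 difference was -0.26 ± 0.18 (SE, p = 0.155, adjusted p = 0.9998). The age difference in DG minus that in CA1, taken within rats, was -0.02 (95% CI -0.50 to 0.45, p = 0.923, adjusted p = 0.9998), and minus that in CA3 it was -0.18 (95% CI -0.62 to 0.27, p = 0.427, adjusted p = 0.9998 in limma). The lower Dcx of aged rats was therefore not shown to be particular to DG.

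**Figure D2:**
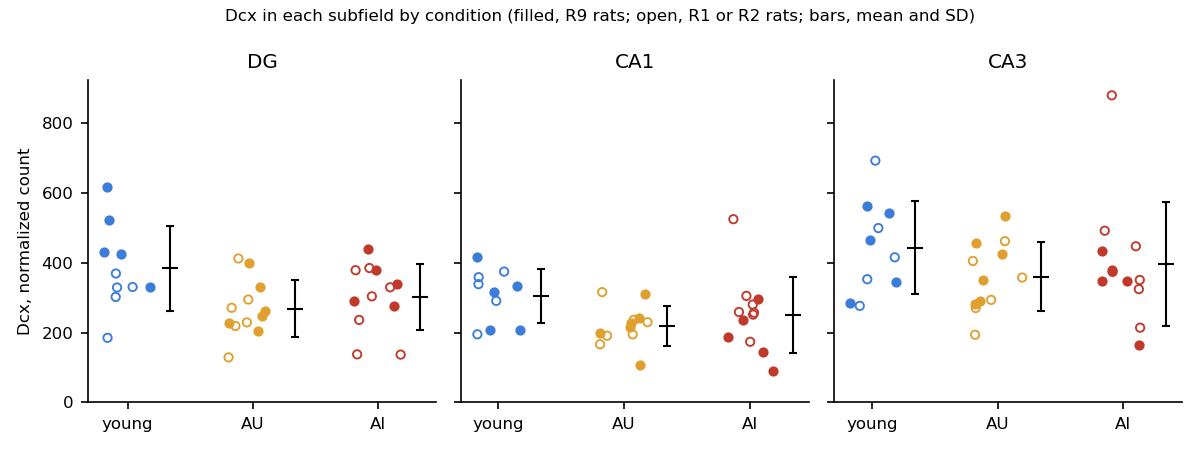
Dcx in normalized counts (vertical axis) in DG, CA1 and CA3 of the same rats by condition, 1 point per rat, filled for R9 and open for R1-R2 rats, with the mean and SD. Aged rats tended to lie lower in DG and CA1 with wide overlap, and in CA3 an AI rat reached 880.

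Sox11 and Igfbpl1 also had log2 differences below 0 in CA3, larger in size than that of Dcx there, and neither was called. Sox11 in CA3 had lowest, median and highest values of 19.0, 26.3 and 46.5 in young, 11.1, 19.7 and 50.4 in AU and 0, 16.6 and 40.2 in AI rats, and 14 of the 24 aged rats were under the lowest young rat. Its log2 difference of -0.69 ± 0.37 (SE, p = 0.0677) had an adjusted p of 0.9998 in limma. Igfbpl1 in CA3 ran from 5.53 through 16.8 to 58.2 in young, from 0 through 11.6 to 107 in AU and from 0 through 8.72 to 26.4 in AI rats. Its log2 difference of -0.95 (95% CI -1.96 to 0.07, p = 0.067) also had an adjusted p of 0.9998, and it was -0.75 without the young rat R2221, whose CA3 library held the value of 58.2. Mki67 differed by -0.10 in CA1 and 0.01 in CA3, and Neurod1 by 0.01 and -0.06. Among 6 members tested in CA1 and 5 in CA3, 0 were called by limma, edgeR or DESeq2, where limma called 0.0183% and 0.00607% of all genes. Dcx was the 1 member in CA1 at an unadjusted p under 0.05, a level reached by 3.43% of genes there, and 0 members reached it in CA3. For the differences between the age effects of DG and of CA1 or CA3, limma called 0 members and 0% of all genes, and 0 members reached an unadjusted p under 0.05.

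**Figure D3:**
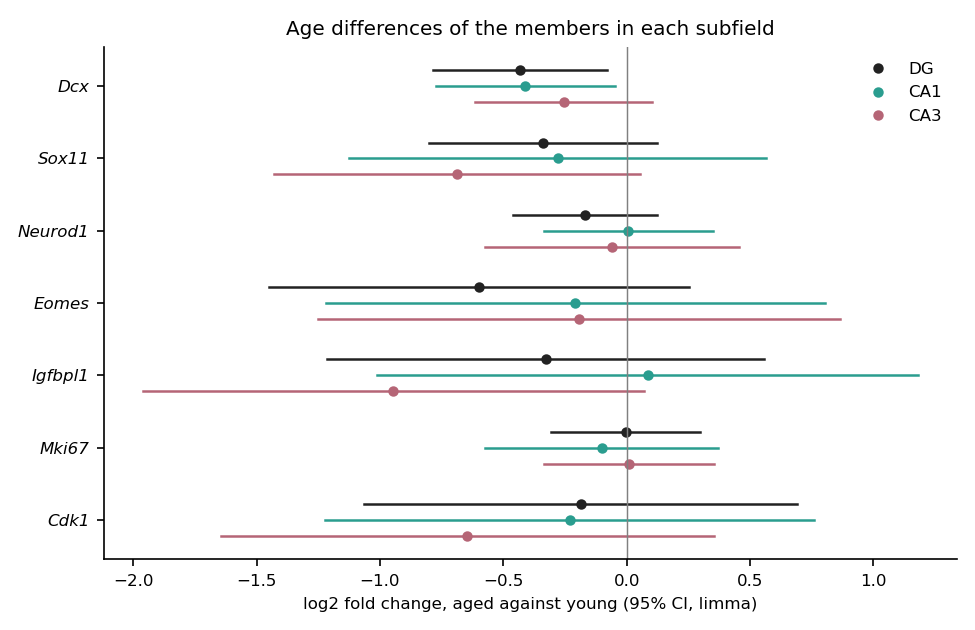
Log2 fold change of aged against young rats (horizontal axis, with 95% CI from limma) for the 7 members in DG, CA1 and CA3, where Eomes in each subfield and Cdk1 in DG and CA3 are from the fit without a filter on low values. The Dcx intervals of DG and CA1 lie below 0 before adjustment, and every other interval includes 0.

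Memory impairment among the aged rats was compared next, 12 AI against 12 AU rats within each subfield. In DG the log2 differences were 0.15 (95% CI -0.24 to 0.54) for Dcx, 0.23 (95% CI -0.26 to 0.72) for Sox11 and -0.03 (95% CI -0.35 to 0.28) for Neurod1. Mki67 differed by -0.09 (95% CI -0.43 to 0.26) and Igfbpl1 by 0.31 (95% CI -0.59 to 1.22), where the AI group held the single value of 84.9 and the difference was 0.02 without rat R9872. In the fit without a filter Cdk1 differed by 0.37 ± 0.50 (SE) and Eomes by 0.50 ± 0.38 (SE). In CA1, Sox11 ran from 0 through a median of 14.1 to 44.0 in AU and from 14.7 through 22.3 to 58.5 in AI rats. The AI rats thus began near the AU median, and the log2 difference was 1.03 ± 0.48 (SE, p = 0.0394) with an adjusted p of 0.9998 in limma. Without the AU rat R2230 this Sox11 difference was 0.71 with p = 0.078 in limma. With each rat left out in turn, p was over 0.05 in 10 of 24 runs. The AU group included 1 library with 0 reads of Sox11. In CA3, Mki67 had medians of 79.2 in AU and 111 in AI rats (log2 difference 0.36 ± 0.20 SE, p = 0.0803) and Neurod1 of 222 and 258 (0.52 ± 0.29 SE, p = 0.086), with adjusted p of 1 for each after rounding. The highest CA3 values of these genes, 284 and 779, were from AI rats. Without the AI rat R1931 the differences were 0.23 for Mki67 and 0.38 for Neurod1, and without the AU rat R9869 that of Neurod1 was 0.32.

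By limma 0 members were called for impairment in DG, CA1 or CA3, as were 0% of all genes, and edgeR and DESeq2 also called 0 members. At an unadjusted p under 0.05 limma gave 0 members in DG, 1 in CA1 (Sox11), where 2.08% of genes reached that level, and 0 in CA3. By edgeR there were 0 in DG, 0 in CA1 and 1 in CA3, and by DESeq2 1, 0 and 1. The shares of all genes at that level by edgeR and DESeq2 are not given here. These counts are therefore not read as a result about the members.

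Between subfields 4 members were called in at least 1 pair. Neurod1, which granule neurons keep expressing as adults, had a median of 393 in DG (range 178 to 549), 214 in CA1 (107 to 555) and 241.5 in CA3 (40.8 to 779). It was higher in DG than in CA1 of the same rat in 29 of 34 rats and higher than in CA3 in 30. The log2 differences were 0.77 ± 0.13 (SE, adjusted p = 7.88e-07) and 0.72 ± 0.13 (SE, adjusted p = 3.58e-06 in limma), and each was called in each series alone. Mki67 had a median of 157 in DG (82.0 to 249), 95.9 in CA1 (18.1 to 180.2) and 94.0 in CA3 (58.4 to 284), and was higher in DG than in CA1 in 30 rats and than in CA3 in 29. Its log2 differences were 0.70 ± 0.12 (SE, adjusted p = 1.66e-06) and 0.64 ± 0.12 (SE, adjusted p = 9.72e-06). Against CA3, Mki67 differed by 0.42 in R9 rats (adjusted p = 0.0728) and by 0.84 in R1-R2 rats (adjusted p = 7.41e-06), and the difference between the series was not called (-0.42, p = 0.0751, adjusted p = 0.226 in limma). The summed level of 26 other cell cycle genes was not highest in DG. Its medians were 1220 in DG, 1276 in CA1 and 1375 in CA3, each over 33 libraries, without the young library of highest Eomes. The sum was not tested between subfields.

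Dcx was ordered differently. Its median was highest in CA3 at 366 (range 164 to 880), followed by DG at 317 (129 to 617) and CA1 at 239 (88.9 to 525), and in 28 of 34 rats it was higher in CA3 than in CA1. The log2 difference between CA1 and CA3 came to -0.64 ± 0.12 (SE, adjusted p = 3.41e-05 in limma) and was called in each series alone. DG was lower than CA3 by limma (-0.34 ± 0.12 SE, adjusted p = 0.0261), with 9 of 34 rats higher in DG, although in R9 rats alone the difference was -0.12 with an adjusted p of 0.624. DG and CA1 differed by 0.30 ± 0.12 (SE, p = 0.0152, adjusted p = 0.0523 in limma), which did not pass, and with rat as a replicate block the adjusted p was 0.0184. It was also called by edgeR (0.31) and DESeq2 (0.30). That difference was 0.65 in R9 rats and -0.01 in R1-R2 rats (difference between the series 0.66, p = 0.00637, adjusted p = 0.136 in limma, not called).

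Igfbpl1 was lower in DG than in CA1, with medians of 7.50 and 13.7, and in CA3 the median was 12.5. The log2 difference of DG against CA1 was -0.94 ± 0.33 (SE, adjusted p = 0.0233 in limma), -0.47 in R9 rats (adjusted p = 0.523) and -1.35 in R1-R2 rats (adjusted p = 0.00381). Without the 10 libraries of high ependymal sum it was -0.72 with an adjusted p of 0.101. The part of ventricular tissue in it was not tested beyond this. Sox11 had medians of 15.0 in DG, 16.5 in CA1 and 20.8 in CA3 and was not called in any pair. Eomes had 0 reads in 24 DG, 22 CA1 and 24 CA3 libraries, and Cdk1 had medians of 1.89, 4.51 and 2.65, so that neither was highest in DG. Of the 5 members tested, 3 were called in DG against CA1 (2 higher in DG), 3 in DG against CA3 (2 higher in DG) and 1 in CA1 against CA3, where limma called 28.5%, 28.9% and 15% of the 16374 genes.

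**Figure D4:**
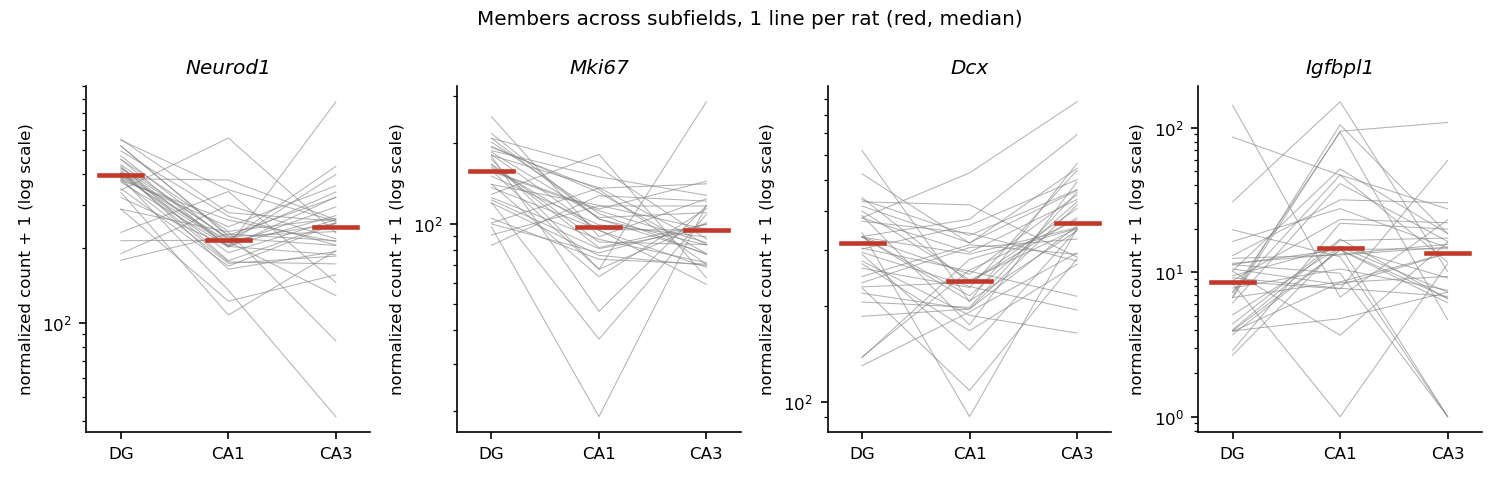
Normalized counts plus 1 (log scale) of Neurod1, Mki67, Dcx and Igfbpl1 in DG, CA1 and CA3, with 1 line per rat and the median in red. Neurod1 and Mki67 were higher in DG in most rats, with medians of 393 and 157, while Dcx was highest in CA3 at 366.

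The promoters of the members are shown for 1 cell cycle gene and 1 neuronal gene because many genes of mitosis carry a CCAAT box together with a CHR element, the letters TTTGAA. Each line gives the 150 bases that end before the RefSeq gene model, 5′ to 3′ on the strand of the gene, with capitals marking CCAAT or, read from the other strand, ATTGG. The element TTTGAA and its reverse complement TTCAAA are in capitals in the same way. The build is GRCr8, and the windows are chr20:19265102-19265251 on the plus strand for Cdk1 and chr3:84770455-84770604 on the minus strand for Neurod1.
Cdk1: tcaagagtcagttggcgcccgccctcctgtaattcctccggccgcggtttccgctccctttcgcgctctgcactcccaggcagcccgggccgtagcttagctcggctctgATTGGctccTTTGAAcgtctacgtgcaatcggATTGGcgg
Neurod1: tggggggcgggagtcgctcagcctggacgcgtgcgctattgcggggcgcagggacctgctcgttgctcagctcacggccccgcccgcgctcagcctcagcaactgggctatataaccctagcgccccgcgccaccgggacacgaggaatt

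The Cdk1 window holds 2 CCAAT letters and 1 TTTGAA, and the Neurod1 window holds neither. Over the 250 bases before the RefSeq transcript start, read on both strands, Mki67 had 4 and 2 matches, Cdk1 3 and 2, and Top2a 4 and 1. The windows of Mki67 and Dcx lie inside their RefSeq gene models and are not printed. Dcx and Neurod1 had none of either, Eomes had 2 CCAAT letters, Igfbpl1 had 1 TTTGAA and Sox11 had 1 of each. CCAAT was found in 34.02% of 33469 rat promoters of this length, TTTGAA in 16.2% and both in 5.87%. Of 23 other cell cycle genes with a promoter in the table, 18 had CCAAT, 7 had TTTGAA and 6 had both. A match is a description of these letters and not a site shown to be bound.

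The level of Mki67 was compared with those of the cell cycle genes across the 34 DG libraries. The series differed in these levels, with a mean Mki67 of 176 in R1-R2 and 129 in R9 rats, a mean cell cycle sum of 1168 and 1465 and a mean granule cell sum of 7925 and 6150.2. Cdk1 was near the lower limit of detection and also differed, with means of 1.36 in R1-R2 and 4.63 in R9 rats. It had 0 reads in 9 of 18 R1-R2 libraries and in 0 of 16 R9 libraries. Each r over the 34 libraries includes this offset, and the permutations did not keep the series apart. Mki67 and Cdk1 were negatively related (r = -0.43, rho = -0.43, p = 0.0109 and 0.0114 by two-sided permutation, adjusted p = 0.0228 and 0.0341 over 21 member pairs). Within the series r was -0.38 in R9 rats (n = 16) and -0.06 in R1-R2 rats (n = 18), and it was -0.32 when the 2 libraries with the most extreme Mki67 were left out. With the summed level of 26 other cell cycle genes Mki67 was negatively related over all libraries (r = -0.40, rho = -0.41, adjusted p = 0.0287 for r over 14 relations), and within the series r was -0.13 and 0.06, close to 0 in each. With the summed granule cell markers Mki67 was positively related (r = 0.59, rho = 0.52, adjusted p = 0.00112 for r), with r of 0.77 in R9 and 0.12 in R1-R2 rats, and 0.42 without the 2 libraries of most extreme marker sum. Whether these relations differed between the series was not tested.

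**Figure D5:**
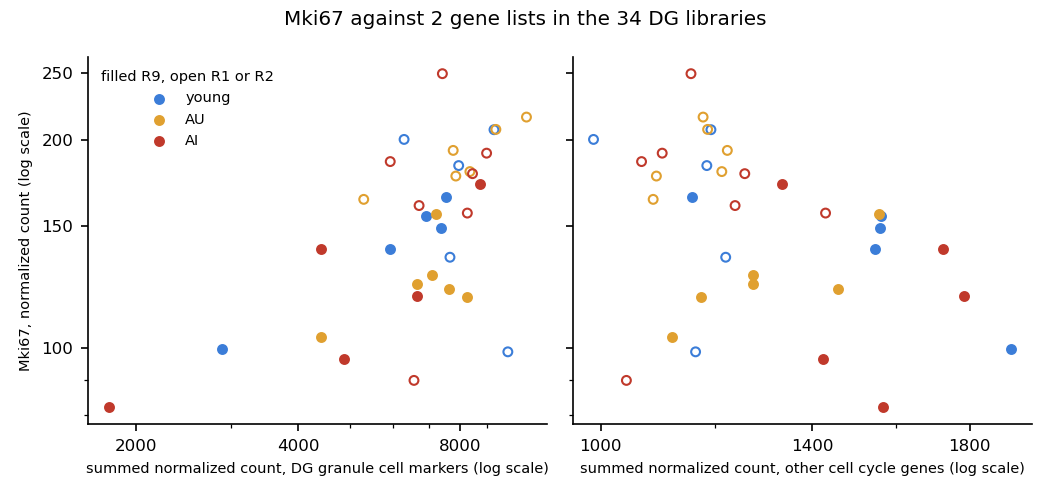
Mki67 in DG (vertical axis, normalized count on a log scale) against the summed normalized count of 10 granule cell markers (left) and of 26 other cell cycle genes (right), 1 point per rat. Over all rats, with the offset between the series included, points rise with the granule cell markers (r = 0.59) and not with the cell cycle genes (r = -0.40). Within R9 and R1-R2 rats r was 0.77 and 0.12 for the granule cell markers. For the cell cycle genes it was -0.13 and 0.06.

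Neurod1 followed the granule cell markers most closely of the members (r = 0.81, rho = 0.69, adjusted p = 0.00014 for r), with r of 0.82 in R9 and 0.54 in R1-R2 rats and 0.77 without the 2 most extreme libraries. Dcx went the other way (r = -0.46, rho = -0.56, adjusted p = 0.0128 for r), with -0.37 and -0.46 within the series and -0.40 without the 2 libraries. With the summed cell cycle genes Dcx had r = 0.57 and rho = 0.48 over all libraries (adjusted p = 0.0015 for r by permutation). It was 0.51 without the 2 libraries of most extreme sum. In R9 rats r was 0.79, whereas in R1-R2 rats it was 0.12. The young R9 rat R9881 had both the highest Dcx in DG (617) and the highest sum (1922.7). The r of R9 rats without it is not given here. Whether the granule cell content of the dissected tissue bears on the age difference of these genes was not tested.

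Among the members themselves, 12 of 21 pairs passed an adjusted p of 0.05 over the 34 DG libraries by Pearson's r and 8 by Spearman's rho. No share over all pairs of genes is set beside these counts, and they include the offset between the series. They are therefore not read as a trait of the members. Within R9 rats 2 pairs passed and within R1-R2 rats 0. Neurod1 and Mki67 were positively related (r = 0.64, rho = 0.56, adjusted p = 0.00084 and 0.00682), with r of 0.73 in R9 and 0.25 in R1-R2 rats and 0.58 when the 2 most extreme libraries for Neurod1 were left out. Igfbpl1 and Cdk1 had r = 0.65 and rho = 0.61 (adjusted p = 0.00021 and 0.00294), with 0.60 and 0.44 within the series and 0.61 without 2 libraries. Within the series this pair did not pass (adjusted p = 0.0527 in R9 and 0.447 in R1-R2 rats by permutation). Cdk1 had 0 reads in 9 of 18 R1-R2 libraries. Sox11 and Eomes had r = 0.51 and rho = 0.56 (adjusted p = 0.0115 and 0.00556), with 0.50 and 0.55 within the series and 0.50 without 2 libraries. This pair did not pass in either series alone (adjusted p = 0.136 in R9 and 0.203 in R1-R2 rats by permutation). Eomes had 0 reads in 11 of 16 R9 and 13 of 18 R1-R2 libraries, so its relations rest on the few libraries with reads. Igfbpl1 and Eomes had r = 0.64 and rho = 0.35 (adjusted p = 0.00357 and 0.0958), which fell to 0.32 without 2 libraries and was 0.08 in R1-R2 rats, so that this relation rests on a few libraries.

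The genes most like Dcx in DG, after removal of the means of condition and series, were Gprasp2 (r = 0.865), Crot (r = 0.835), Rapgef6 (r = 0.823), Ccdc138 (r = 0.808) and Col5a2 (r = 0.807), out of 16191 genes over 34 libraries. The genes most like Mki67 were Fzd6 (r = 0.782), Dph1 (r = 0.770), 2 genes without a symbol (r = 0.764 and 0.730) and Plk5 (r = 0.729). These are the highest of many values in the same libraries and are given as a description.

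The rest of the pathway was followed through 4 lists. With age in DG limma called 0.0741% of all genes, so 0 called is not read as a result about a list. The share of all genes above or below 0 is not given here. Counts by sign are therefore not read as a trend of a list. Of 14 neural stem cell genes tested in DG, 0 were called with age and 11 were above 0 (median log2 difference 0.12). Gfap, the intermediate filament of astrocytes and radial glia-like cells, had medians of 10916 in young and 15662 in aged rats (log2 difference 0.51 ± 0.11 SE, adjusted p = 0.0627), and Hopx, a homeodomain gene of quiescent stem cells, of 187 and 214 (0.22, adjusted p = 0.596). Of 18 progenitor and immature neuron genes, 0 were called and 12 were below 0 (median -0.06). Sema3c, a secreted semaphorin, had medians of 611 in young and 448 in aged rats (-0.52 ± 0.19 SE, p = 0.00877, adjusted p = 0.586), and Bhlhe22 differed by -0.40 (adjusted p = 0.598).

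Of 23 other cell cycle genes tested in DG, 0 were called with age and 16 were below 0 (median -0.07). Kif23, a kinesin of cytokinesis, had medians of 14.7 in young and 8.92 in aged rats (-0.75 ± 0.30 SE, p = 0.0175, adjusted p = 0.596), and Ccne2, a cyclin of S phase entry, differed by -0.55 (adjusted p = 0.596). Of 21 genes of niche signalling, 0 were called and 14 were above 0 (median 0.07). Wnt3, a ligand that promotes neuronal fate of adult progenitors, had medians of 6.79 in young and 15.0 in aged rats (0.98 ± 0.24 SE, adjusted p = 0.113), and Wnt7a differed by 0.23 (adjusted p = 0.575). For impairment in DG, 0 genes of the 4 lists were called by limma. The smallest p in each list were those of Fabp7 (0.30, p = 0.0654), Tbr1 (-0.47, p = 0.0265), Cdc20 (1.07, p = 0.000404) and Sfrp1 (0.62, p = 0.0235), with adjusted p of 1 for each after rounding. Cdc20, an activator of the anaphase-promoting complex, had lowest, median and highest values of 2.03, 5.16 and 16.5 in AU and 7.81, 13.4 and 21.9 in AI rats, which overlapped.

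Markers of cells other than the neurogenic lineage were measured beside these results. The limits on 0 called and on counts by sign hold for these lists too. Of 10 microglia markers, 1 was called higher in DG of aged rats, Trem2, with medians of 122 in young and 165 in aged rats (0.57 ± 0.11 SE, adjusted p = 0.0218). Of the 10, 9 were above 0 (median 0.29) and 7 were higher at an unadjusted p under 0.05, beside 8.33% of all genes. The summed microglia markers ran from 4448 to 8004 in young and from 5383 to 11390 in aged rats. With age, 0 were called in DG among 10 granule cell, 8 CA1, 9 CA3 and CA2, 9 oligodendrocyte precursor, 7 vessel, 8 ependymal and 8 interneuron or Cajal-Retzius markers, with medians of -0.09, 0.18, -0.07, 0.08, -0.002, -0.34 and 0.09. For impairment in DG, 0 of these and 0 of 10 microglia markers were called, and 10 of 10 granule cell markers were below 0 (median -0.31, with 0.0012 over all genes). The granule cell markers come from the same libraries and are not 10 separate events. Their lowest sum in DG, 1778, was from the AI rat R9781, and the AU rat R9865 had 4416. In DG no marker of these lists had 0 reads throughout a condition, and their part in the member differences was not tested.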

How the data were processed

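Poly-A mRNA was sequenced by the authors from CA1, CA3 and DG of 34 rats. Reads were aligned by the authors to rn5 with TopHat2 and Bowtie2 and counted with featureCounts 1.4.4, and the deposited signal is the count of each gene divided by a DESeq2 1.10.1 size factor. Division by the smallest value above 0 of each library gave whole reads for 100% of values (tolerance 0.01), and these recovered counts were used for edgeR 4.0.16 and DESeq2 1.42.0. Of the 26689 genes, 4719 had no symbol.

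Groups were those of the labels. Tests used limma 3.58.1 in R 4.3.3 (lmFit and eBayes, trend = TRUE), two-sided. Values were transformed as log2(value + 1), genes averaging under 5 over the libraries compared were dropped, and p-values were adjusted by Benjamini-Hochberg over all genes tested. A fold change on that scale understates the change of low genes. Comparisons were aged against young and AI against AU rats within a subfield, pairs of subfields over 102 libraries, and age differences between subfields taken within rats.

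Rat numbers pair the subfields because they mark the same animal. As a check, the deviations of libraries of the same rat correlated with a median of 0.10 between DG and CA1, 0.06 between DG and CA3 and 0.05 between CA1 and CA3, against -0.006, -0.005 and -0.001 for different rats. The check is weak, as the library of the same rat was the best match in only 5, 1 and 2 of 34 rats. Means of the series were not removed from the deviations, so an offset between the series enters these values.

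Correlations used 100000 permutations (scipy 1.17.1, Python 3.11.15), with the 2 series also given apart. The 12 gene lists held 166 genes, of which 153 were in the table. Members and lists were chosen with earlier results of these data known. All members were named, with the 2 genes of smallest p (or up to 4 past the threshold) of a list in DG, and the 5 most alike genes of Dcx and Mki67. Sox4 and Top2a were matched to no row, and columns of no sample numbered 0. Promoters were taken from RefSeq (GRCr8). The relations with summed lists, and the settings without libraries of high ependymal markers or high Eomes, were added after seeing the data. The tests were checked on simulated data. These counts were drawn independently for each library with the same dispersion for every gene, without effects of rat or series. The check therefore does not cover the offset between the series or libraries that stand apart.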

Additional observations from a re-analysis of the deposited data

Results flagged for a closer look

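In each group of 10 young rats the highest or lowest value of a member was compared with the rest by Dixon's gap ratio. Of 21 groups, 8 held such a value. The usual chance rate of about 1 in 20 holds for normally distributed values and does not apply to low counts with many at 0. The groups also share libraries, so these are not 8 separate events. In DG, rat R9881 accounted for 4 of them, with 26.0 normalized counts of Eomes (next highest 3.28), 141 of Igfbpl1 (next 12.02), 9.05 of Cdk1 (next 3.88) and 189 of Neurod1, the lowest, where the next was 374. In CA1, rat R9879 had 45.1 of Eomes (next 1.43) and 104 of Igfbpl1 (next 30.6). In CA3, rat R2221 had 49.6 of Eomes (next 3.48) and 58.2 of Igfbpl1 (next 29.2). The ependymal and choroid plexus sum was the highest of the subfield in the libraries of R9881 (5056, others at most 2772) and R2221 (14767, others at most 3099), and in that of R9879 it was 825, exceeded by 10 of 33 other CA1 libraries. The summed cell cycle genes of R9881 (1922.7) were also the highest of the DG libraries. The part of these values in the levels of the members was not tested.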

How the results depend on the processing

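With age and with impairment 0 members were called under every alternative run, including each rat left out in turn (lowest and highest count 0). For DG against CA3, 3 members were called, and 1 in R9 rats alone. With rat as a replicate block 4 members were called for DG against CA1 in place of 3, 3 for DG against CA3 and 1 for CA1 against CA3, and without the block 0 for the age differences between subfields, so that Dcx in DG against CA1 was the member whose call the pairing changed. Of the 21 member pairs 12 passed, against 2 in R9 rats alone, 0 in R1-R2 rats alone and 7 without 2 extreme libraries. Over all genes, the 12 called with age in DG became 21 with the series as a covariate, 38 with DESeq2, 5 in R9 and 1 in R1-R2 rats, 2 with AU or with AI rats alone, and 6 to 27 with a rat left out. The 3 called in CA1 became 6 with DESeq2 and 0 in either series, with AU or AI rats alone and without the libraries of high ependymal sum or high Eomes, and the 1 in CA3 became 2 without a filter, 4 with edgeR and 0 in R9 rats, with AU or AI rats alone and without those libraries. In R1-R2 rats 2341 of the 4671 genes were called for DG against CA1, and in R9 rats 814 of the 2463 for CA1 against CA3, as counts and not as shared genes. The log2 differences of single members changed sign in 57 cases, not counting the runs with a rat left out, none of them called in the main analysis, and the cause was not tested. In R9 rats alone the values were, for age in DG Sox11 0.0330, for age in CA1 Neurod1 -0.22, for age in CA3 Mki67 -0.11, for impairment in CA1 Cdk1 -0.0274, Dcx -0.23, for impairment in CA3 Dcx -0.25, for DG against CA1 Sox11 0.0335, for DG against CA3 Igfbpl1 0.22, Cdk1 0.0257, for CA1 against CA3 Neurod1 0.0742, for age in DG minus age in CA1 Neurod1 0.0233, Sox11 0.0443, for age in DG minus age in CA3 Neurod1 0.0853. In R1-R2 rats alone the values were, for age in DG Mki67 0.15, for age in CA1 Cdk1 0.35, Igfbpl1 -0.0532, Mki67 0.0759, for age in CA3 Neurod1 0.0946, for impairment in DG Neurod1 0.0195, for impairment in CA1 Mki67 0.18, for impairment in CA3 Igfbpl1 0.0690, for DG against CA1 Dcx -0.0114, for CA1 against CA3 Mki67 0.0743, for age in DG minus age in CA1 Dcx 0.0400, for age in DG minus age in CA3 Mki67 0.0304. With edgeR the values were, for age in DG Mki67 0.00784, for age in CA1 Cdk1 0.0769, Mki67 0.00887, for age in CA3 Neurod1 0.0817, for impairment in CA1 Cdk1 -0.0622. With DESeq2 the values were, for age in DG Mki67 0.00569, for age in CA1 Cdk1 0.0988, Mki67 0.00990, for age in CA3 Neurod1 0.0839, for impairment in CA1 Cdk1 -0.0552. With TMM scaling the values were, for age in CA1 Neurod1 -0.00544. With the series as a covariate the values were, for age in CA1 Neurod1 -0.00978, for age in DG minus age in CA1 Dcx 0.00483. With AU rats alone the values were, for age in DG Mki67 0.0390, for age in CA3 Mki67 -0.17. With AI rats alone the values were, for age in CA1 Neurod1 -0.0893, Igfbpl1 -0.29, Sox11 0.23, for age in CA3 Neurod1 0.20. Without the 10 libraries of high ependymal sum the values were, for age in CA1 Igfbpl1 -0.38, for age in CA3 Mki67 -0.0404, for CA1 against CA3 Neurod1 0.0383, for age in DG minus age in CA1 Igfbpl1 0.48, Sox11 0.0163, Dcx 0.00246. Without the 3 young libraries of highest Eomes the values were, for age in DG Igfbpl1 0.0913, for age in CA3 Mki67 -0.0244, for age in DG minus age in CA1 Mki67 -0.0394, Sox11 0.11, Dcx 0.0989. In the fit without a filter and without those libraries the values were, for age in DG, Igfbpl1 0.0913 and Cdk1 0.0031. With a rat left out the sign turned for 9 of 32 differences of a member, none of them called, for example for impairment in DG Neurod1 (-0.13 to 0.03) and for age in CA3 Neurod1 (-0.16 to 0.05). Low counts limit Eomes and Cdk1, which had 0 reads in many libraries.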
